A study of Mus musculus with 12 samples.

Results

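The transcripts described here are those of the Control hippocampus, measured on 6 bead arrays out of the 12 of the series. The remaining 6 arrays, from ethanol-exposed mice, enter no comparison. Each array held hippocampal RNA from C57BL/6J females with a labelled age of 12 weeks, while the series title names postnatal day 87. The labels do not say whether an array holds a single mouse or a pool. Control in the sample titles and in the treatment label set the group. The text of the treatment protocol, 10% ethanol drunk by the dam between days 0.5 and 8.5 after coitus, stands on the Control samples too, so it was not used. The labels name neither the drink of the Control dams nor the litters, and the spread between arrays may therefore include siblings of a shared dam. Control 1 and Control 2 lay on chip 1 and Control 3 to Control 6 on chip 2.

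The array carries 45281 probes. A single gene is given for 34885 of them and several genes for 18, and 10378 have no gene name. The 34885 probes cover 19057 genes. Each gene was represented by its probe with the highest mean intensity, and genes were ranked where the detection p-value of that probe, which sets it against negative control beads, was under 0.05 on all 6 arrays. This left 9958 genes, 52.3% of those with a probe. A further 2374 genes (12.5%) were detected on some arrays and 6725 (35.3%) on none. Levels are background-corrected, quantile-normalized log2 intensities, and each value after ± is the SD over the 6 arrays. A level is the signal of 1 probe. Probes differ in how well they bind their transcript, so ranks order signals and not numbers of molecules, and a probe that was not detected does not show that its gene is silent. In RNA of whole tissue, fewer cells of a type and less RNA per cell cannot be told apart.

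The hippocampus forms new memories of places and events. Its principal neurons are glutamatergic: granule cells of the dentate gyrus send mossy fibres to CA3 pyramidal cells, which project to CA1. Interneurons that release GABA control their firing, astrocytes clear transmitter and oligodendrocytes wrap axons in myelin. The choroid plexus, which secretes cerebrospinal fluid, lies against the hippocampus in the lateral ventricle.

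Signal per array was alike. The median deposited intensity ran from 126.0 to 143.5 and the number of genes detected from 10753 to 11244. No 2 arrays held the same values. Pearson correlations between arrays over the 9958 ranked genes, with 1 probe per gene, ran from 0.9862 to 0.9952. They are a description over probes of shared normalization. In transcripts of the choroid plexus, Control 2 and Control 4 differed from the other 4 arrays. All 11 choroid plexus markers with a probe were detected on Control 2 and on Control 4, against 4 or 5 of 11 on the other 4 arrays. The mean level of the list was 10.72 in Control 2 and 9.35 in Control 4, and it lay between 5.94 and 6.38 in the other 4. Folr1, Aqp1, Kcne2, Otx2 and F5 were detected on these 2 arrays only.

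**Figure D1:**
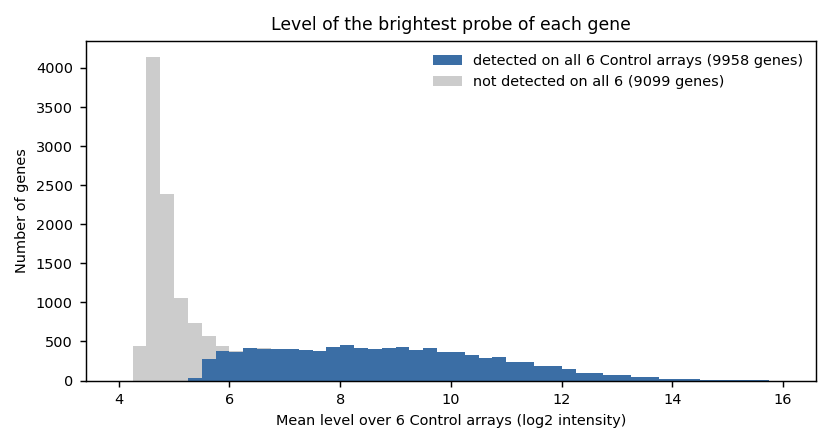
Histogram of the mean level of the brightest probe of each gene (log2 intensity, x axis) against the number of genes (y axis). Blue marks the 9958 genes detected on all 6 Control arrays, grey the other genes. The ranked genes spread from 5.40 to 15.59, while the other genes pile up at the low end.

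The sex and tissue labels were set against marker genes. Xist, a non-coding RNA made from the inactive X chromosome, had a level of 11.04 ± 0.16 (lowest 10.81, median 11.04, highest 11.31), and its 4 probes were each detected on all 6 arrays. None of 7 Y-linked genes was ranked. Eif2s3y, Kdm5d, Usp9y, Zfy1, Zfy2 and Sry were detected on no array, and Uty on 5 arrays at 5.41 ± 0.09, near background. Over all Y-linked genes with a probe, 0 of 19 were ranked. Markers of all hippocampal subfields were present, as given below. Few products of other organs were detected on all 6 arrays: 6 of 29 genes of liver, muscle, pancreas, gut and other epithelia were ranked (20.7%) and 4 of 18 genes of the germ line (22.2%), against 52.3% of all genes. Albumin (Alb), insulin 2 (Ins2) and muscle creatine kinase (Ckm) were not ranked. The ranked members of the organ list were Krt10 at 10.31 ± 0.09, Amy2a5 at 9.65 ± 0.08, Acta1 at 8.79 ± 0.16, Lgals4 at 7.04 ± 0.24, Cela1 at 5.84 ± 0.40 and Apoa2 at 5.67 ± 0.25.

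The 30 named genes of highest signal were as follows. Fth1, the heavy chain of the iron store ferritin, ranked first at 15.59 ± 0.05 (lowest 15.51, median 15.59, highest 15.67). ND4 and CYTB, which the mitochondrial genome encodes as parts of respiratory complexes I and III, followed at ranks 2 and 4 with 15.43 ± 0.07 and 15.37 ± 0.04. The ubiquitin pseudogene Ubb-ps stood between them at 15.41 ± 0.04, and signal of the pseudogene and of its parent gene Ubb was not told apart here. Ckb, the brain creatine kinase that buffers ATP, reached 15.36 ± 0.05.

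The protein-making apparatus supplied 8 of the 30 highest genes. They were the ribosomal protein genes Rpl23 (15.35 ± 0.09), Rplp1 (15.18 ± 0.04), Rpl41 (14.98 ± 0.06), Rps29 (14.66 ± 0.08), Rpl38 (14.66 ± 0.03), Rps2 (14.61 ± 0.09) and Rpl9 (14.60 ± 0.04), and the elongation factor Eef1a1 (15.22 ± 0.06). ATP synthase contributed Atp5b at 15.30 ± 0.04 and Atp5g3 at 14.91 ± 0.03. Neuronal genes among the 30 were Syt1, the calcium sensor of vesicle release, at 14.81 ± 0.05 (lowest 14.75, median 14.81, highest 14.89), Kif1a, a motor that carries synaptic vesicle precursors, at 14.58 ± 0.06, Atp1b1, a subunit of the sodium pump, at 14.64 ± 0.08, and Olfm1, a secreted glycoprotein of neurons, at 14.89 ± 0.07. With the mean over a gene's probes, Syt1 fell to rank 287, Kif1a to 595 and Olfm1 to 210, while Atp1b1 stood at rank 20. Rasgrf1, an imprinted exchange factor for Ras, stood at rank 30 with 14.58 ± 0.12, and the imprinted Snurf at rank 22 with 14.74 ± 0.10. The prion protein gene Prnp had 15.21 ± 0.05 and Cpe, the carboxypeptidase that trims neuropeptides, 14.89 ± 0.11. Mt1 (metallothionein 1, 14.91 ± 0.12), Cst3 (cystatin C, 14.90 ± 0.03), Ppia (cyclophilin A, 15.07 ± 0.05), Tuba1b (an alpha-tubulin, 14.92 ± 0.02), Wbp2 (14.82 ± 0.07), Grina (14.69 ± 0.04) and Nme7 (15.13 ± 0.04) completed the set. SDs of these 30 ran from 0.02 for Tuba1b to 0.12 for Rasgrf1 and Mt1. The highest deposited intensity ran from 46563.9 on Control 2 to 58776.0 on Control 4, before quantile normalization gave the arrays a shared distribution. How much of the small spread at the top came from that step was not tested.

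**Figure D2:**
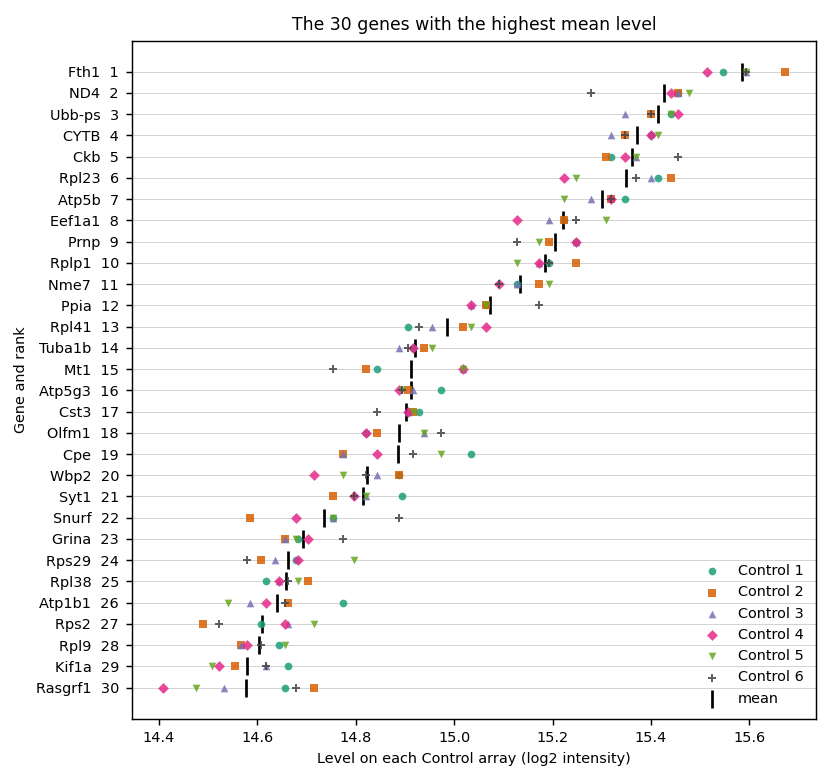
Level on each of the 6 Control arrays (log2 intensity, x axis) for the 30 genes of highest mean level, ordered by rank (y axis). Each symbol is 1 array and the black bar is the mean. Fth1 lies highest, and within a gene the arrays lie close together after quantile normalization, which gives them a shared distribution, with the SD at most 0.12.

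Of the 30 brightest probes detected on all 6 arrays, 11 carry no gene name in the platform annotation and cannot be described by gene. As bright as the probe of rank 30 or brighter were 50 probes, of which 16 had no gene name and 4 were further probes of named genes. Probes without a name were detected on all 6 arrays in 24.7% of cases (2563 probes), and probes naming 1 gene in 43.7% (15237 probes).

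Below rank 30 came Hpca (hippocalcin, a calcium sensor abundant in hippocampal pyramidal cells) at 14.57 ± 0.07, Calm3 (calmodulin) at 14.53 ± 0.10 and App, the precursor of amyloid beta, at 14.50 ± 0.08. Mbp (myelin basic protein) followed at rank 42 with 14.44 ± 0.12 and Actb at rank 45 with 14.42 ± 0.06. In all, 82 genes had a mean of 14 or more, 603 lay from 12 up to 14, 2122 from 10 up to 12, 3287 from 8 up to 10, 3181 from 6 up to 8 and 683 under 6. The median was 8.65, and 5% of ranked genes lay above 12.33. At the low end Hcst, an adaptor of immune cells, closed the ranking with 5.40 ± 0.08.

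The detection threshold cut through a continuous range. Just inside, 1700017B05Rik, Arsi and Ccdc17 each had a highest detection p-value of 0.04915, with levels of 5.50, 5.55 and 5.64. Just outside, Hic1 and Olfr725 had 0.05021 and Ankub1 0.05128, with levels of 5.65, 5.46 and 5.66. These levels overlap, so a gene near 5.5 may fall on either side.

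All 8 genes of the mitochondrial genome with a probe were ranked. After ND4 and CYTB came ND1 at 14.47 ± 0.20, ATP6 at 13.46 ± 0.24 and COX2 at 13.40 ± 0.22, then ND4L at 10.43 ± 0.23, ND5 at 8.53 ± 0.29 and ND6 at 6.12 ± 0.48. ND1, ATP6, COX2, ND4L and ND6 were each lowest on Control 1, which was the lowest array for 19.8% of all ranked genes. ND4 and ND5 were lowest on Control 6 and CYTB on Control 3. ND1 had 14.09 on Control 1, against 14.42 to 14.65 on the other 5 arrays. The nuclear genes of oxidative phosphorylation had 35 of 38 members ranked, with a median of 12.64. Cox5b stood at 14.13 ± 0.06 and Ndufa4 at 14.08 ± 0.06, Cox7b was lowest at 6.70 ± 0.14, and Ndufs1, Sdha and Uqcrfs1 were not ranked. Sdha and Ndufs1 encode essential subunits of complexes II and I, and their probes were detected on 0 of 6 arrays.

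The other core lists were also bright. Of the cytosolic ribosomal protein genes 23 of 26 were ranked with a median of 13.60, Rplp0 being lowest at 8.11 ± 0.08 and Rpl6, Rps20 and Rpsa not ranked. All 14 glycolysis genes were ranked (median 12.63), led by Eno2, the neuronal enolase, at 13.81 ± 0.09, Tpi1 at 13.80 ± 0.04, Gapdh at 13.54 ± 0.06 and Aldoa at 13.51 ± 0.08, with Ldhb lowest at 6.08 ± 0.10. The proteasome had 22 of 26 members ranked (median 11.93), with Psma2 at 13.28 ± 0.04 and Psmb4 at 13.24 ± 0.06. Tubulin, actin and neurofilament genes had 22 of 24 ranked (median 12.14), with Tubb5 at 14.47 ± 0.09, Actb as above, and Tmsb4x at 14.31 ± 0.06. Nefl and Tubb3, which code for neuronal cytoskeleton proteins, were not ranked. Of all genes 52.3% were ranked, and the median over all ranked genes was 8.65. These lists were chosen as abundant genes, so their share ranked and their height are a description and not a finding.

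Among neurons, the subfield markers differed in signal and in detection. Shares ranked in these and the following lists stand beside 52.3% of all genes. Genes with more probes were ranked more often, as given below. For dentate granule cells 8 of 11 markers were ranked (72.7%) with a median of 7.93. C1ql2, a synaptic organizer released by mossy fibres, led with 12.62 ± 0.12 (lowest 12.40, median 12.64, highest 12.74), Rasl10a had 10.22 ± 0.23, and Prox1, the transcription factor that specifies granule cells, had 9.50 ± 0.17. Lct followed at 8.07 ± 0.22 and Pdzd2 was lowest at 5.73 ± 0.21. Trpc6 varied most, with an SD of 0.33. For CA1 pyramidal cells 8 of 9 markers were ranked (88.9%), with a median of 10.88. They were led by Fibcd1 at 12.55 ± 0.11 (lowest 12.41, median 12.54, highest 12.73), Mpped1 at 11.98 ± 0.14, Dcn at 11.71 ± 0.49 and Spink8 at 11.48 ± 0.18. Wfs1, a protein of the endoplasmic reticulum, had 10.07 ± 0.18. Dcn encodes decorin, which fibroblasts of the meninges also make, and it was counted in both lists. For CA2 and CA3 cells 8 of 11 were ranked (median 9.09), with Bok at 11.69 ± 0.20 (lowest 11.43, median 11.74, highest 11.99), Nectin3 at 10.39 ± 0.13, Amigo2, an adhesion protein of CA2 and CA3, at 9.98 ± 0.09, and Rgs14, a regulator of plasticity in CA2, at 8.07 ± 0.12. Calb1, the calbindin of granule and CA1 cells, and Pcp4, a marker of CA2, were detected on 0 of 6 arrays by their brightest probes.

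Of interneuron markers 14 of 15 were ranked (93.3%, against 52.3% of all genes), with a median of 11.12. Sst (somatostatin) led with 12.90 ± 0.20 (lowest 12.67, median 12.91, highest 13.22), followed by Gad1, which makes GABA, at 12.64 ± 0.18, Cck at 12.50 ± 0.13 and Slc32a1, the vesicular GABA transporter, at 12.01 ± 0.12. Pvalb (parvalbumin) had 11.90 ± 0.11, Npy 11.24 ± 0.07, Gad2 11.07 ± 0.09 and Vip 9.60 ± 0.20. Cnr1, the cannabinoid receptor of Cck cells, was lowest and most variable at 6.51 ± 0.31, and Lhx6 was detected on 5 of 6 arrays. Markers of adult neurogenesis were dimmer, with 6 of 9 ranked (66.7%) and a median of 8.03. The brightest of them was Calb2 at 11.17, which was also counted among the interneuron and thalamus markers. Tbr1, at 8.50, was also counted among the neocortex markers. Dcx, the doublecortin of migrating young neurons, had 7.57 ± 0.18, Sox11 9.90 ± 0.20 and Nes 5.66 ± 0.21. Eomes and Top2a, of intermediate progenitors and dividing cells, were detected on 0 arrays, and Neurod1 on 4.

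Glial markers were ranked for 13 of 14 astrocyte genes (92.9%, against 52.3% of all genes, median 10.95). Slc1a3, a glutamate transporter, had 14.19 ± 0.06 (lowest 14.10, median 14.20, highest 14.26), Aldoc 13.49 ± 0.10, the gap junction gene Gja1 13.33 ± 0.06 and Apoe 12.49 ± 0.13. Gfap, the intermediate filament of astrocytes, had 10.95 ± 0.07, and S100b was lowest at 5.78 ± 0.15. Glul (glutamine synthetase) varied most, at 7.24 ± 0.39. Of the myelin genes 11 of 12 were ranked (median 10.73), with Cldn11 at 13.73 ± 0.15, Mag at 12.22 ± 0.18 and Mobp at 11.79 ± 0.21 after Mbp. Precursors of oligodendrocytes had 8 of 11 ranked (72.7%), with Olig1 at 12.66 ± 0.06 and the growth factor receptor Pdgfra at 9.65 ± 0.06. Olig2 was detected on 3 arrays.

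Microglia, the resident macrophages, had 13 of 14 markers ranked (92.9%, against 52.3% of all genes) at a median of 7.93. Laptm5 had 11.39 ± 0.21 (lowest 11.13, median 11.47, highest 11.59), the complement genes C1qb and C1qc 9.86 ± 0.14 and 9.59 ± 0.07, and Cx3cr1, the fractalkine receptor, 8.99 ± 0.18. P2ry12 had 7.06 ± 0.20, Ctss was lowest at 6.43 ± 0.10, and Itgam was detected on 0 arrays. All 16 endothelial and pericyte markers were ranked, with a median of 7.59. Slc2a1, the glucose transporter of the blood-brain barrier, had 11.35 ± 0.25 (lowest 10.96, median 11.42, highest 11.59). Cldn5, a tight junction protein, had 10.15 ± 0.45, with 10.73 on Control 1 and 10.69 on Control 6 and 9.74 to 10.09 on the other 4 arrays. Of 10 blood cell genes 4 were ranked, against 52.3% of all genes. Hbb-bs, Hbb-bt and Hba-a1, genes of haemoglobin, had 13.28 ± 0.17, 12.99 ± 0.16 and 12.81 ± 0.17, and Cd3e, of T cells, had 5.60 ± 0.22. The red cell genes Hbb-b2 and Slc4a1 and the white cell genes S100a8, S100a9 and Ptprc were detected on 0 arrays, and Alas2, of haem synthesis in red cells, on 4.

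**Figure D3:**
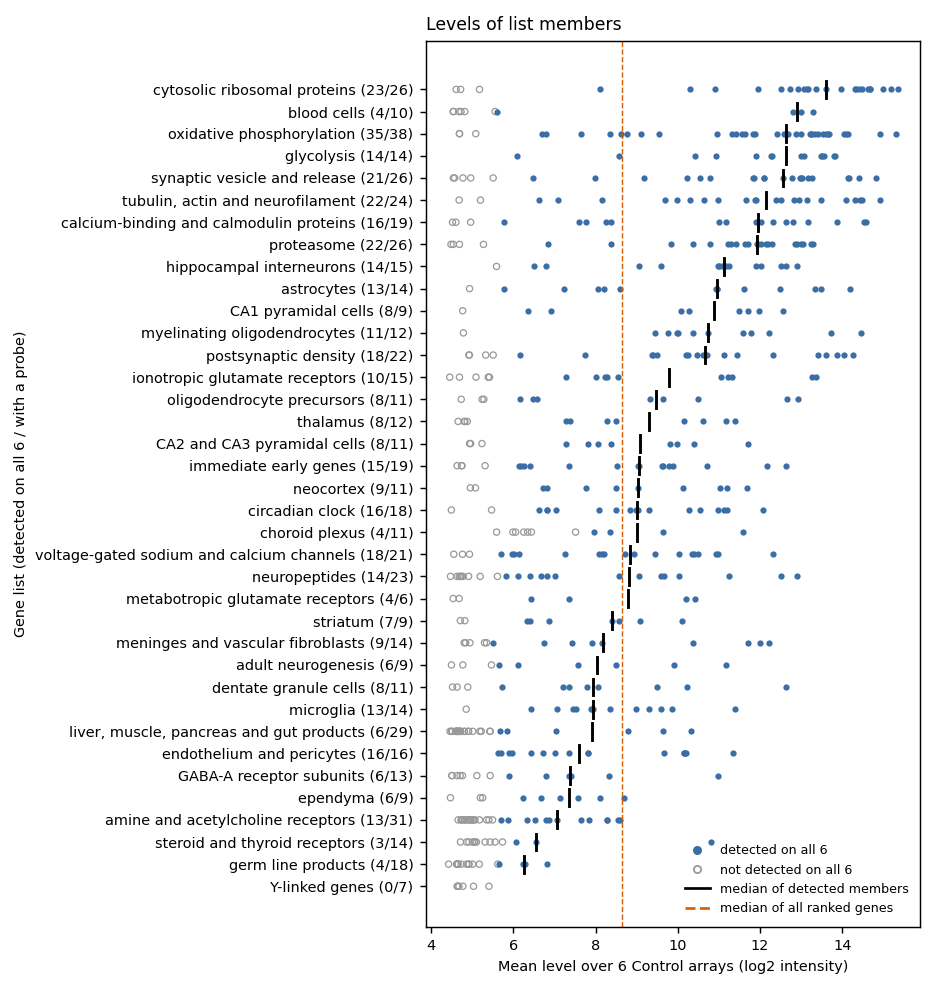
Mean level over the 6 Control arrays (log2 intensity, x axis) of every member of each gene list (y axis, with the number ranked and the number with a probe). Filled points were detected on all 6 arrays, open points were not, black bars are medians of the ranked members and the dashed line is the median of all ranked genes. The ribosomal protein list has the highest median (13.60), followed by the blood cell list (12.90, from 4 ranked members), and the steroid and thyroid receptor and germ line lists have the lowest.

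Genes used as markers of neighbouring brain regions were measured too. Of thalamus markers 8 of 12 were ranked (66.7%, median 9.31), of neocortex markers 9 of 11 (81.8%, median 9.04) and of striatum markers 7 of 9 (77.8%, median 8.40), against 52.3% of all genes. Several of these genes are also expressed in the hippocampus. Fezf2 had 11.68 ± 0.21, Lamp5 11.02 ± 0.16, Adarb1 11.38 ± 0.10 and Ppp1r1b, the dopamine-regulated phosphatase inhibitor of the striatum, 10.10 ± 0.47. Ppp1r1b had 10.945 on Control 2 and 10.316 on Control 4, and 9.642 to 9.919 on the rest, as choroid plexus genes were highest on Control 2 and Control 4. Drd2 and Isl1 were detected on 0 arrays. How much of the RNA of these markers came from tissue outside the hippocampus was not tested.

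The machinery of synaptic vesicle release was bright, with 21 of 26 genes ranked (80.8%, against 52.3% of all genes) and a median of 12.56. After Syt1 stood Cplx1 (complexin 1, a clamp on fusion) at 14.39 ± 0.06, the vesicle protein Syp at 14.17 ± 0.07 and Nsf, which takes the fusion complex apart, at 14.13 ± 0.09. Slc17a7, the vesicular glutamate transporter of forebrain, had 11.86 ± 0.09, and Syn3 was lowest at 6.49 ± 0.27. Snap25, a core fusion protein abundant in all neurons, had a brightest probe at 4.58 ± 0.14 that was detected on 0 of 6 arrays. Of postsynaptic genes 18 of 22 were ranked (81.8%, median 10.66). Camk2b had 14.25 ± 0.07 (lowest 14.16, median 14.23, highest 14.35) and Camk2a 13.40 ± 0.08, both subunits of the kinase of synaptic plasticity. The calcineurin subunits Ppp3ca and Ppp3cb had 14.04 ± 0.06 and 13.86 ± 0.12. Dlg4, which encodes the scaffold PSD-95, had 9.38 ± 0.15, and Camk2d was lowest at 6.16 ± 0.46.

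Receptors were mostly dimmer than the release machinery. Among ionotropic glutamate receptors 10 of 15 subunits were ranked (median 9.79), led by the AMPA receptor subunits Gria1 at 13.36 ± 0.09 (lowest 13.27, median 13.32, highest 13.48), Gria2 at 13.25 ± 0.11 and Gria3 at 11.32 ± 0.15. The NMDA receptor subunits Grin2b and Grin2a had 11.05 ± 0.11 and 8.01 ± 0.26. Among metabotropic receptors 4 of 6 were ranked, with Grm7 at 10.41 ± 0.07 and Grm5 at 10.19 ± 0.14, while Grm8 had 6.44 ± 0.49. Of GABA-A receptor subunits 6 of 13 were ranked (46.2%, near the 52.3% of all genes, median 7.38). Gabrb1 had 10.98 ± 0.07 and Gabrd, the delta subunit of extrasynaptic receptors, 8.32 ± 0.11, while Gabra5 was detected on 0 arrays and Gabra4 on 5. Of amine and acetylcholine receptors 13 of 31 were ranked (41.9%, against 52.3% of all genes), none above 8.61. They were led by the serotonin receptor Htr1a at 8.61 ± 0.17 (lowest 8.47, median 8.55, highest 8.91), the muscarinic receptor Chrm3 at 8.55 ± 0.10, the nicotinic subunit Chrnb2 at 8.29 ± 0.11 and the adrenergic receptor Adra2c at 8.27 ± 0.12. Of the list of steroid and thyroid receptors, which also holds the retinoid receptors, 3 of 14 were ranked (21.4%): the retinoid receptors Rxrb (10.80 ± 0.10) and Rarb (6.56 ± 0.16), and the thyroid hormone receptor Thra (6.08 ± 0.38). Nr3c1, the glucocorticoid receptor, was detected on 1 array and Nr3c2, the mineralocorticoid receptor, on 4. Sodium and calcium channels had 18 of 21 ranked (median 8.83), led by Scn2b at 12.32 ± 0.10 and Cacna1h at 10.99 ± 0.15, and Cacna1c was detected on 0 arrays.

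Peptides and activity genes had medians near that of all ranked genes (8.65), and calcium-binding proteins a higher one. Of 23 neuropeptide genes 14 were ranked (60.9%, near the 52.3% of all genes, median 8.81). Sst, Cck and Npy stood as above and Pdyn, the dynorphin precursor of mossy fibres, at 10.03 ± 0.21. Nts varied most in this list at 6.67 ± 0.51, and Oxt was lowest at 5.81 ± 0.35. Pomc, Hcrt and Avp, peptides of the hypothalamus, were detected on 0 arrays. Calcium-binding and calmodulin genes had 16 of 19 ranked (median 11.96), with Vsnl1 at 13.88 ± 0.10 and Calm2 at 13.15 ± 0.23 after Hpca and Calm3. Of the immediate early genes, which neuronal activity switches on, 15 of 19 were ranked (median 9.06). Egr1 had 12.62 ± 0.22 (lowest 12.25, median 12.65, highest 12.92), Egr3 12.16 ± 0.08, Arc 9.06 ± 0.13 and Fos 7.37 ± 0.28. Npas4 varied most at 6.26 ± 0.54. Few chemosensory receptors were detected on all 6 arrays: 18 of 1078 Olfr genes (1.67%), 1 of 129 Vmn1r genes, 1 of 42 Vmn2r genes and 0 of 32 Tas2r genes were ranked. The brightest were Olfr724 at 6.78 ± 0.18, Olfr538 at 6.54 ± 0.18 and Olfr378 at 6.27 ± 0.22.

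Detection differed with the number of probes a gene has. Genes with 1 probe were ranked in 38.8% of cases, with 2 probes in 59.0%, with 3 in 72.2% and with 4 or more in 82.8%; these genes may differ in other ways, and what sets the order was not tested. Letting any probe of a gene count gave 9964 ranked genes in place of 9958. Among 6125 ranked genes with at least 2 probes, the second probe was also detected on all 6 arrays for 3658 (59.7%). The brighter probe of those was 1.09 higher at the median, and 46.3% of pairs lay within 1 on the log2 scale. Across these genes the 2 probes had a Spearman correlation of 0.64, and genes are not independent replicates. The largest gaps were in Ywhah (14.28 and 6.10), Ywhaz (13.81 and 5.75), Rbfox1 (13.77 and 5.96), Rps19 (13.36 and 5.63) and Zwint (14.44 and 7.02). The 9 probes of Nme7 ran from 15.13 to 4.45, with 3 of them not detected on all 6 arrays. By class, 53.2% of 18400 protein-coding genes and 25.2% of 453 long non-coding RNAs were ranked.

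Spread between the 6 arrays was small for most genes. The median SD was 0.137, and 7597 genes (76.3%) had an SD under 0.2. In 5 bins of equal size from low to high level, the median SD was 0.213, 0.167, 0.132, 0.114 and 0.0934. The lowest SDs among genes above the median level were those of Ndufa2, of respiratory complex I (12.45 ± 0.01), Smn1, needed to assemble splicing particles (10.84 ± 0.02), Psma5, of the proteasome (13.05 ± 0.02), Mycbp2 (10.60 ± 0.02), Acsl5 (11.71 ± 0.02), Tuba1b (14.92 ± 0.02), Dcaf6 (9.68 ± 0.02), Tmem87b (9.29 ± 0.02), Zfp282 (9.36 ± 0.03) and Eipr1 (11.53 ± 0.03). Ndufa2 had a lowest value of 12.43, a median of 12.45 and a highest of 12.46. Quantile normalization gives all arrays a shared distribution, and with median scaling in its place the median SD was 0.204.

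An SD above 0.5 was found for 99 genes, 0.994% of the ranked genes, and for 43 without background correction and likewise 43 in the authors' normalized table. Of these, 21 lay above the median level and 78 below it. In 70 of the 99, Control 2 and Control 4 both exceeded the other 4 arrays, which held for 699 of all 9958 ranked genes (7.02%). Of the 99, Control 2 was the highest array for 73 and Control 4 for 10, against 1859 and 1437 of all 9958 ranked genes. Without Control 2 and Control 4, 30 genes had an SD above 0.5, 15 of them shared with the 99, and without Control 2 alone 44 did, 37 of them shared.

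**Figure D4:**
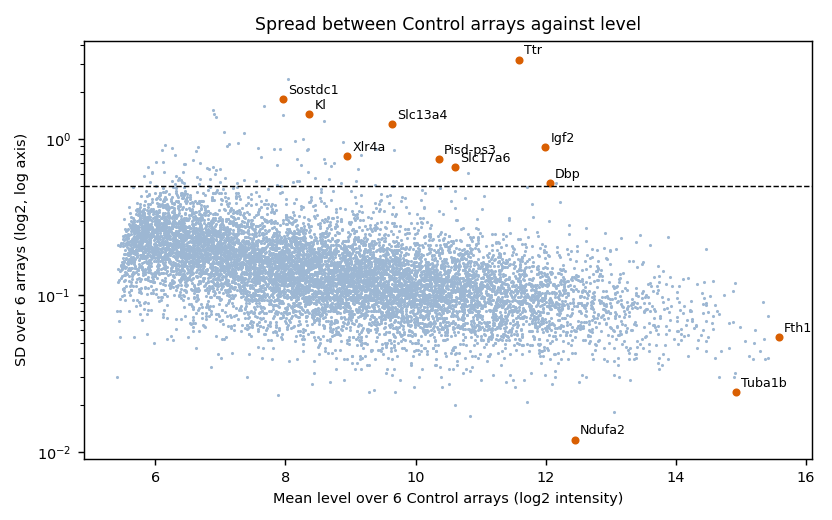
SD over the 6 Control arrays (log2, logarithmic y axis) against mean level (log2 intensity, x axis) for the 9958 ranked genes. The dashed line marks an SD of 0.5, and orange points are named genes chosen after their values were seen. Ttr has the highest SD of 3.20, and SDs fall with level for most genes.

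Ttr (transthyretin, the thyroid hormone carrier that the choroid plexus secretes) varied most, at 11.58 ± 3.20. Its levels were 10.38 on Control 1, 15.42 on Control 2, 7.90 on Control 3, 15.37 on Control 4, 11.55 on Control 5 and 8.89 on Control 6. Control 2 and Control 4 stood far above the other 4 arrays, which themselves spanned 7.90 to 11.55. Without these 2 arrays its mean was 9.68, at rank 3291 in place of 992. Slc13a4, a sulfate transporter of the choroid plexus, had 11.70 and 10.65 on Control 2 and Control 4 and 8.75 to 8.98 on the other 4. Igf2, the imprinted growth factor of choroid plexus and meninges, had 13.55 and 12.52, against 11.22 to 11.69. The imprinted Cdkn1c, an inhibitor of the cell cycle, had 10.47 and 9.63, against 8.17 to 8.52. Slc4a2, an anion exchanger, had 10.98 and 9.77, against 8.76 to 9.04. Cd59a, an inhibitor of complement, Vat1l, Hemk1 and Rsph1, a part of ciliary spokes, showed the same order, with Control 2 highest and Control 4 next. Below the median level the choroid genes Sostdc1 (7.96 ± 1.80) and Kl, encoding klotho (8.36 ± 1.44), did so too.

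Lists of adjoining tissue moved with the same 2 arrays. The mean level of the ependyma list was 7.34 on Control 2 and 6.84 on Control 4, and 6.29 to 6.41 on the other 4. The mean of the meninges and fibroblast list was 8.12 and 7.99, against 7.38 to 7.58. Its members Igf2, Igfbp2 and Mgp were higher on both arrays than on the rest. Dcn, also a member, was lower on Control 2 (11.505) than on Control 1 (11.869). Ptgds, the prostaglandin synthase of meninges, had 12.22 ± 0.40, and Col3a1 was detected on 0 arrays. How far each high value on these arrays came from choroid plexus carried along with the tissue was not tested.

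Other variable genes had another order over the arrays. Slc17a6, the vesicular glutamate transporter of thalamus, had 9.36 on Control 2 and 10.52 to 11.25 on the other 5 arrays, and its second probe had 9.15 on Control 2 and 10.40 to 11.04 elsewhere. Xlr4a, an X-linked gene of the Xlr family, had 7.71 on Control 2 and 8.59 to 9.89 elsewhere. Pisd-ps3, a pseudogene of phosphatidylserine decarboxylase, had 9.17 on Control 1, 11.48 on Control 6 and 10.17 to 10.52 on the rest. Its relative Pisd-ps1 showed the same order at 8.35, 10.00 and 8.92 to 9.16, and near-identical copies of this gene may share signal.

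Several clock genes were lowest on Control 1. These transcripts cycle over the day, since CLOCK and BMAL1 drive Per, Cry, Nr1d1 and Dbp through E-boxes and the products of Per and Cry hold that drive back. Of 18 clock genes 16 were ranked, with a median of 9.01. Dbp, an output of the loop, had 11.11 on Control 1, 11.83 on Control 6 and 12.18 to 12.44 on the other 4. Tef had 11.20 ± 0.17, Bhlhe40 11.13 ± 0.19 and Csnk1e 10.97 ± 0.13. Per1 had 8.89 on Control 1, 9.08 on Control 6 and 9.24 to 9.57 on the other 4. Nr1d2, a repressor, had 8.16, 8.72 and 8.92 to 9.17 in the same order. Control 1 was the lowest array for 6 of the 16, and for 1969 of all ranked genes (19.8%).

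Npas2 was lowest in level at 6.63 ± 0.39, and Cry1 was detected on 0 arrays. The mean level of the list was 8.55 on Control 1 and 8.68 to 8.73 on the other 5. Ciart, a repressor of the same loop that was not on the list and was named after its values were seen, had 7.72 on Control 1, 8.28 on Control 6 and 8.91 to 9.10 on the other 4. All 3 of its probes had this order. Sgk1, a kinase induced by glucocorticoids, had 11.65 on Control 1 and 11.50 on Control 6, against 12.15 to 12.74 on the others, and was also named after its values were seen. The labels used here give no time of day.

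**Figure D5:**
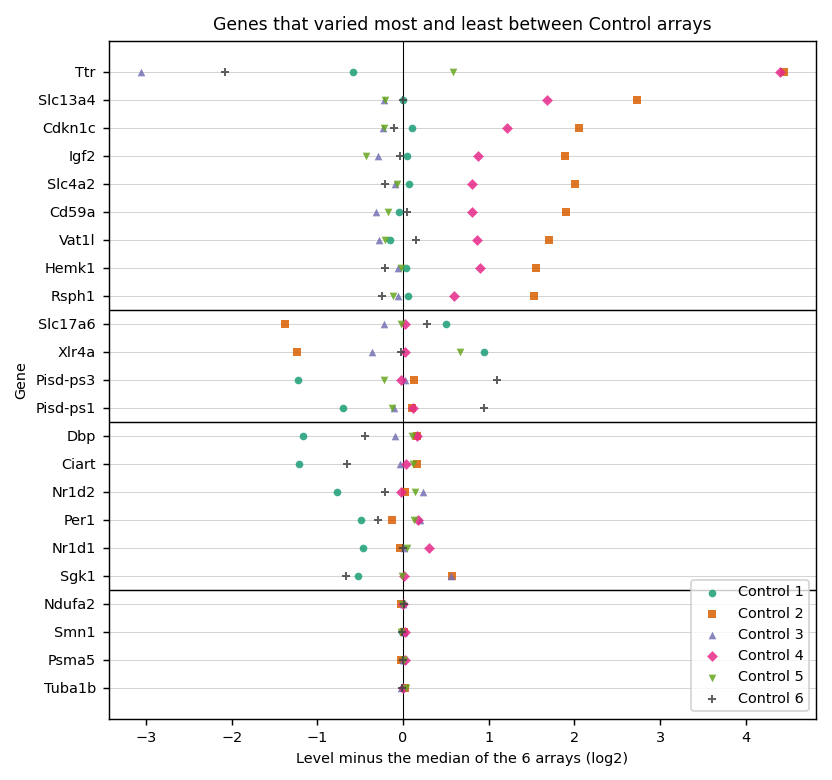
Level on each Control array minus the median of the 6 arrays (log2, x axis) for genes of high and low SD (y axis), with symbols for the arrays. The blocks, from top to bottom, hold genes highest on Control 2 and Control 4, genes lowest on Control 2 (Slc17a6 and Xlr4a) or lowest on Control 1 and highest on Control 6 (Pisd-ps3 and Pisd-ps1), clock genes with Sgk1, and 4 genes of lowest SD. Genes shown beyond the 12 highest and 10 lowest SDs were chosen after their values were seen.

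Promoters of 3 genes of these results are given from RefSeq (build GRCm38.p6), each 250 bases before to 50 after the gene's start, 5′ to 3′ on the gene's strand. Ciart (chr3:95882179-95882478, minus strand) and Dbp (chr7:45704997-45705296, plus strand) are shown because both were lowest on Control 1 and next lowest on Control 6, and Ckb (chr12:111672289-111672588, minus strand) because it was among the 5 highest genes. Capitals mark the E-box letters CACGTG in Ciart and the TATA letters TATAAA in Ckb.
Ciart: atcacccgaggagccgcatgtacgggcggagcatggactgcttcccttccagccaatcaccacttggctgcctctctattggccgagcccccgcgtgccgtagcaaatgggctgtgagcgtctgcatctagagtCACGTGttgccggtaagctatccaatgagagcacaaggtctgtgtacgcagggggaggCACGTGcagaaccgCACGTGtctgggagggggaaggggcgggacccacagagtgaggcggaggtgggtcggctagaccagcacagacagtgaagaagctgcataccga
Dbp: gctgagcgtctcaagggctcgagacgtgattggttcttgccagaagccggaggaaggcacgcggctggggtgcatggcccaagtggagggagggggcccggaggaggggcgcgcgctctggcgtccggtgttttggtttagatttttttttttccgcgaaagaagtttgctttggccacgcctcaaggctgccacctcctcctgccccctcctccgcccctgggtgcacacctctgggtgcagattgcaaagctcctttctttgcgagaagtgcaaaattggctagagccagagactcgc
Ckb: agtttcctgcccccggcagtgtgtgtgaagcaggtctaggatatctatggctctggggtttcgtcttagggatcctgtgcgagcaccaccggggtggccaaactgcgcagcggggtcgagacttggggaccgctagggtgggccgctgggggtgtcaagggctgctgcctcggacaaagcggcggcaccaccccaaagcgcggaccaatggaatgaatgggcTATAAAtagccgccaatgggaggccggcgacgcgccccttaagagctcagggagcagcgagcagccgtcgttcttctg
Searched on both strands, CACGTG occurs in 7.15% of 32851 promoters of the same length and at 3 or more places, as in Ciart, in 0.0883%. Dbp has none in this window. TATAAA occurs in 13.6% of promoters, and on the gene's strand starting 35 to 26 bases before the start, as in Ckb, in 1.71%. Of the 30 highest genes 23 had a promoter in the table, of which 6 held TATAAA and 4 CACGTG. Of the clock genes with Ciart 16 had one, of which 0 held TATAAA and 4 CACGTG. A gene with several promoters was counted if any of them held the letters. The percentages above are shares of single promoters, so the gene counts are not on the same scale. A match is a string of letters and not a measured site.

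Chip 1 and chip 2 were compared as the only batch the labels give. With limma over 17800 probes detected on all 6 arrays, 0 probes differed at an adjusted p under 0.05 (0.0%), while 2520 (14.2%) had an unadjusted p under 0.05, with 1015 higher and 1505 lower on chip 1. The 95% interval of a difference reached 0.26 to either side at the median. For Ttr the mean was 12.90 on chip 1 and 10.93 on chip 2, a difference of 1.97 with an interval from -2.79 to 6.72. Dbp had 11.78 on chip 1 and 12.21 on chip 2, a difference of -0.43 (interval -1.19 to 0.33). For Fth1 the difference was 0.04 (interval -0.17 to 0.24). With 2 arrays on chip 1, these differences of Ttr, Dbp and Fth1 could not be told from the spread between arrays, which does not show that the chips are alike. Without any chip difference, an unadjusted p under 0.05 would be expected for a share of about 0.05 of probes. Probes of an array can vary together, so the 14.2% cannot be judged against that share.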

How the data were processed

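Hippocampal RNA of the Control group was measured on 6 Illumina bead arrays of 1 colour. The authors deposited, per the file headers, linear probe intensity values that are not normalized, each with a detection p-value. Per the submitters' processing notes, GenomeStudio 1.9.0 was used. The authors' other deposited table, holds linear intensity with a median of 135.7 on each Control array and nearly shared quantiles, as quantile normalization leaves, and served as an alternative. Levels came from limma 3.58.1 (R 4.3.3), whose neqc function with an offset of 16 was run on the 6 Control arrays alone, and are on the log2 scale, whereas the deposited values are not log2. Gene names came from the platform annotation and were checked against RefSeq GRCm38.p6.

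The chip comparison used limma's lmFit and eBayes, two-sided, with Benjamini-Hochberg adjustment over 17800 probes. On simulated data with 200 changed probes, this chip comparison recovered 0.0% of probes changed by 0.5, 76.3% of those changed by 1 and 98.7% of those changed by 2. With nothing known of litters, p-values measure only the spread between arrays. Precision is limited by having 6 arrays.

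The members and the 37 gene lists were chosen with earlier results of these data known. Named genes are the 30 highest, the 12 of highest and 10 of lowest SD above the median level, 3 on each side of the detection threshold, leading, lowest, most variable and undetected list members, sex genes, and the 5 genes whose probes differed most. Other names were chosen after their values were seen: members of lists named beside these, the genes just below rank 30, the mitochondrial genes, Sostdc1, Kl, Ciart, Sgk1, Pisd-ps1 and Hcst. Alternatives changed the background correction, the normalization, the detection rule, the probe per gene, the chip and the arrays.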

Additional observations from a re-analysis of the deposited data

Results flagged for a closer look

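In 17 of 252 sets of 6 values examined (the 213 ranked genes named in the text, 37 list means, and the median intensity and number of detected genes per array), 1 array lay far from the other 5 for the range of the set. Chance gives about 1 in 20 sets, or 12.6 of 252, where sets are independent and chosen before their values are seen. Many of these genes were named for their SD or after their values were seen, and list means share members with named genes. The count of 17 can therefore not be judged against chance. On Control 6, ND4 was lowest at 15.28 (nearest array 15.44), Cst3 lowest at 14.84 (nearest 14.91) and Actb lowest at 14.30 (nearest 14.42), while Ppia was highest at 15.17 (nearest 15.06) and Adra2c highest at 8.52 (nearest 8.26). On Control 2 the interneuron genes Vip, Gad2 and Pvalb were lowest at 9.20 (nearest 9.60), 10.91 (nearest 11.08) and 11.68 (nearest 11.89), as was the mean of the interneuron list at 10.15 (nearest 10.33). Of its other members, Slc32a1, Sst, Calb2, Reln, Htr3a and Cort were lowest on Control 2 without being flagged. Gad1, Cck, Npy, Kit, Cnr1 and Lhx6 were lowest on other arrays. Dlg4 was also lowest on Control 2 at 9.10 (nearest 9.38), Ywhah was highest at 14.40 (nearest 14.27), and the mean of the endothelium and pericyte list was highest at 8.17 (nearest 8.00). On Control 4, Gria2 was lowest at 13.04 (nearest 13.23) and the mean of the sodium and calcium channel list lowest at 8.10 (nearest 8.21). On Control 1, Atp5g3 was highest at 14.97 (nearest 14.92), Gria3 lowest at 11.03 (nearest 11.32) and the mean of the clock list lowest at 8.55 (nearest 8.68). Control 2 and Control 4 also carried the choroid plexus transcripts, whose part in these values was not tested.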

How the results depend on the processing

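The number of ranked genes ran from 9121 (detection p under 0.01) to 12332 (detected on at least 1 array), against 9958. Of the 30 highest genes 28 to 30 were shared under every alternative run except the mean over a gene's probes, which shared 21 and moved Nme7 to rank 827. The same setting moved Kif1a to rank 595, Rasgrf1 to 380, Rpl38 to 343, Syt1 to 287 and Olfm1 to 210. Rpl23 moved to rank 189, Snurf to 115 and Rps2 to 41. The median SD lay between 0.0972 and 0.204. The count of 99 genes with an SD above 0.5 became 43 without background correction, 43 in the deposited normalized table, 48 on chip 2 alone and 30 without Control 2 and Control 4, the last chosen after seeing the data. Leaving out 1 array gave 44 to 124, the lowest without Control 2. The chip comparison called 0 probes but 1455 with median scaling (30 higher and 1425 lower on chip 1, beside a median shift of -0.22 over the probes), and 53 with robust eBayes and an intensity trend; leaving out 1 array gave 0 to 11, the highest without Control 1, which leaves 1 array on chip 1, assumed to vary like the others. The cause of these moves was not tested. No paired analysis was possible because only the Control group enters. Dim probes near background limit the ranks at the low end.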

Other observations

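Genes known as targets of glucocorticoid hormone were looked up after Sgk1 was seen to be low on Control 1 and Control 6. Tsc22d3, which encodes the glucocorticoid-induced leucine zipper, had 10.65 on Control 1 and 10.55 on Control 6, against 10.94 to 11.37 on the other 4 arrays. Fkbp5, a chaperone that dampens the receptor, had 8.31 and 8.32, against 8.56 to 8.85. Hif3a had 6.20 and 6.28, against 6.85 to 7.64, Plin4, of lipid droplets, had 5.79 and 5.67, against 6.62 to 7.57, and Arrdc2 had 5.77 and 5.43, against 6.08 to 6.63. Of the others looked up, Zbtb16 had 7.17 on Control 1, among its highest values, Mertk had 9.05 there, and Pdk4 and Cdkn1a had 6.34 and 6.96 on Control 6 but 6.89 and 7.40 on Control 1. The genes were chosen after values of these arrays were seen, so no test is given, and whether hormone level, time of day or another factor differed between the arrays was not tested. Inmt, a methyltransferase, had 6.65 on Control 1 and 10.38 on Control 2, with 7.72 to 9.39 on the other 4.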
